A study of Mus musculus with 6 samples.

Results

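The serpin family was followed here through 9 of the 24346 gene symbols measured in mouse colorectal tumor cells, with Serpinf1 as the leading member. The members were the rows with the symbols Serpinf1, Serpine2, Serping1, Serpinh1, Serpinb1a, Serpinb6a, Serpinb6b, Serpinb9 and Serpinb9b. The list was chosen by symbol, but with the FPKM difference between the cell lines already known for these samples, so the members count as selected on these FPKM values and that difference is given for the members as a description without a test.

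RNA was sequenced from CT26 cells of 2 kinds, with 3 biological replicates of each, to compare the cells a mutant screen began from with a mutant picked in it for stronger activation of a MAIT cell line. The parental cells, CT26.mMR1, are the mouse colorectal tumor line CT26 transduced with a retrovirus that overexpresses mouse MR1, the molecule that presents metabolites to MAIT cells. M8 is 1 clone grown from CT26.mMR1 cells after treatment with the mutagen ENU, and it carries the same MR1 transgene. In the paper, 3 mutants activated the MAIT cell line more, and M8 was followed because its surface MR1 was higher than in parental cells. A difference between M8 and the parental cells is therefore a difference between 1 mutagenized clone and its parent line. Mr1 RNA stood at 1034 to 1139 FPKM in all 6 libraries, with overlapping groups. The FPKM values do not measure the MR1 protein at the cell surface. FPKM counts fragments per kilobase of transcript, scaled to the mapped fragments of the library, and is thus a level corrected for length and depth.

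Serpins share a fold with an exposed loop that acts as bait, and a protease that cuts this loop becomes trapped in a covalent complex with the serpin. Secreted serpins control coagulation, fibrinolysis and complement outside the cell, whereas members of clade B lack a classical signal peptide and protect the cell interior from its own or from incoming proteases. A few serpins inhibit no protease, among them Serpinf1, also called pigment epithelium-derived factor (PEDF), a secreted factor known for blocking blood vessel growth, and Serpinh1, also called HSP47, a collagen chaperone of the endoplasmic reticulum.

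The 4 members outside clade B lie on separate chromosomes, and the 5 clade B members lie together on chromosome 13. In GENCODE vM21 on GRCm38, Serpinf1 spans chr11:75409769-75422701 on the minus strand, Serpine2 chr1:79794197-79861180 on the minus strand, Serping1 chr2:84765387-84775444 on the minus strand and Serpinh1 chr7:99345376-99353239 on the minus strand. The clade B cluster runs from Serpinb1a at chr13:32842092-32851185 on the minus strand to Serpinb6a at chr13:33917918-34002794 on the minus strand. Between them lie Serpinb6b at chr13:32965209-32979067, Serpinb9 at chr13:33003250-33017957 and Serpinb9b at chr13:33027416-33041884, all on the plus strand. The cluster holds 16 Serpinb genes in 1.16 Mb, of which 15 are not pseudogenes. The longest coding sequences of Serpinb6a and Serpinb6b were 86.3% identical over their aligned bases, and those of Serpinb9 and Serpinb9b were 86.4% identical. For the 4 pairings across these genes the identity was 67.2% to 69.1%. None of the 9 members shared an exact run as long as a read with a transcript of another gene, when the longest coding transcript of each member was searched. Exons of Serpinb6a overlap exons on the opposite strand, and so do those of Serpinb9b. Whether strand was used in making the FPKM values is not given in the sources used here.

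The start regions of the paralogues Serpinb9 and Serpinb9b, and sites of Serpinf1 and Serpinb6a, are shown. They were picked with the levels in both lines already known. Whether a motif bears on a level was not tested. The bases come from RefSeq on GRCm38.p6, which gave 8 start regions for 7 of the 9 members. Each region of 250 bases before a start was searched on both strands for 5 motifs. The Serpinb9 region, chr13:33004291-33004540 on the plus strand, and the Serpinb9b region, chr13:33027164-33027413 on the plus strand, read as follows, with a match to GAAANNGAAA, the core of the interferon-stimulated response element, in capitals.
Serpinb9: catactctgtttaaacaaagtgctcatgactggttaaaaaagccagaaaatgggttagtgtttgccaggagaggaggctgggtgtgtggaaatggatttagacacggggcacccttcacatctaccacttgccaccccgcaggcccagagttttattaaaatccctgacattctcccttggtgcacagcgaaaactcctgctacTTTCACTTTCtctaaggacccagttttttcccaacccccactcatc
Serpinb9b: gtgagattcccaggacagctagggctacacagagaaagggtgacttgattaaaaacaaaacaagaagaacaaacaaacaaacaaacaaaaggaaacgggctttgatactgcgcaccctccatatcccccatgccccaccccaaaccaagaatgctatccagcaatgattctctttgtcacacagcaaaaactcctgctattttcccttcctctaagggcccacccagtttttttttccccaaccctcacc

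The match in Serpinb9 lies on the opposite strand and begins 46 bases before the RefSeq start. In GENCODE the Serpinb9 gene begins further upstream, at chr13:33003250, so the region lies inside it. Over 225 aligned bases the regions of the pair were 68.4% identical. The site that aligned with TTTCACTTTC in Serpinb9 was TTTCCCTTCC in Serpinb9b, which differs by A5C and T9C, with positions counted from the first base of the site as printed and the Serpinb9 base first. Serpinb9b therefore held no match in this window. The motif occurred in 978 of 32851 regions of the same length, or 2.98%. Serpinb6a held it too, in the region at chr13:34002795-34003044 but not in its other region, at chr13:33936084-33936333. There it overlapped a match to TTCNNNGAA, the core of the STAT element, which 7.02% of regions hold. Of these genes with the motif, Serpinb9 was higher in M8 and Serpinb6a lower. Serpinf1 held TGATGNAAT, the core of the joint C/EBP and ATF element, 31 bases before its RefSeq start, as 0.816% of regions did. The searches for GAANNTTCNNGAA, the heat shock element, and for TGANTCA, the AP-1 site, found no match in the 8 regions, against 0.466% and 6.75% of all regions. The sites of Serpinf1 at chr11:75422636-75422664 and of Serpinb6a at chr13:34002856-34002885, both on the minus strand, are given with a few bases on each side and the matches in capitals. In GENCODE the Serpinf1 site lies within the first exon of a longer transcript.
Serpinf1: caccagacaaTGATGCAATcacagattcc
Serpinb6a: ccgcgctTTTCGATTTCCGGGAAcgtttga

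Depth and identity of the libraries were checked before the levels were compared. The FPKM steps of 264 low genes put the depth at about 21.3 to 24.1 M mapped reads in the parental libraries and 17.3 to 19.6 M in M8. Mesenchymal markers such as Vim and Fn1 summed to 2412 to 2843 FPKM, while 5 of 12 colon epithelium markers, Epcam, Cdh1, Krt19, Cdx2 and Lgr5, were listed at 0 in all 6 libraries and the 12 together summed to 39.9 to 56.7 FPKM, nearly all from Krt18 and Krt20. Leukocyte markers summed to at most 0.567 FPKM, with Cd3e and Adgre1 at 0 and Ptprc at or near 0.

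M8 replicate 1 stood apart from the other libraries in the clade A serpins, many of which are secreted by liver. Their 24 symbols summed to 2.87 FPKM in that library and to at most 0.108 FPKM in each of the other 5. Serpina1b was the highest at 0.816 FPKM, followed by Serpina1e at 0.659 FPKM. A list of 16 further liver genes, written after these values had been seen, summed to 16.3 FPKM in M8 replicate 1 and to between 0.0311 and 0.687 FPKM elsewhere. All 16 were highest in M8 replicate 1, with Alb, which encodes albumin, at 4.31 FPKM against at most 0.0863 FPKM in the other libraries. No clade A serpin is a member.

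**Figure D1:**
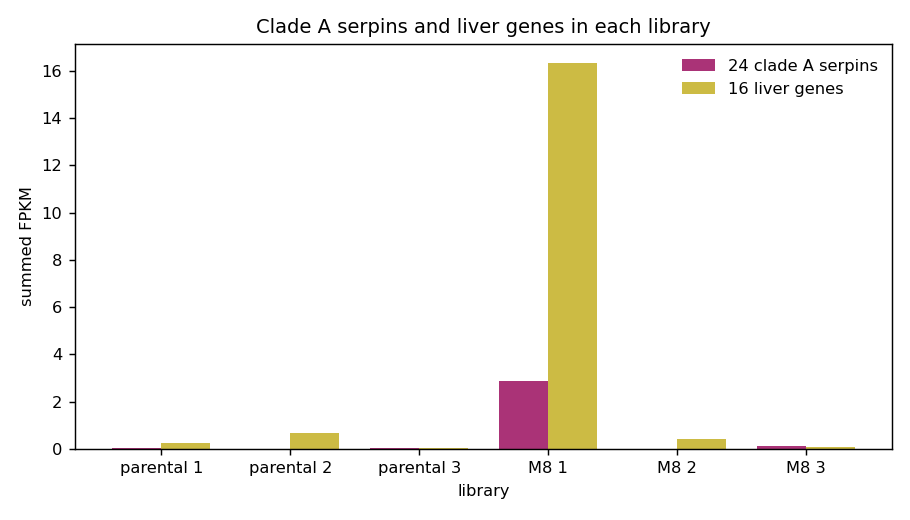
Summed FPKM of the 24 clade A serpins and of 16 liver genes in each of the 6 libraries, with 1 bar per library and list. M8 replicate 1 stands at 2.87 FPKM for the serpins and 16.3 FPKM for the liver genes, above the other 5 libraries in both.

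Serpinf1 was higher in M8 than in the parental cells. Its level was 88.8, 86.6 and 92.9 FPKM in parental replicates 1 to 3 and 158.8, 155.9 and 156.9 FPKM in M8 replicates 1 to 3. The 3 M8 libraries lay within a few FPKM of each other and far above every parental library. The parental mean was 89.4 ± 3.17 FPKM and the M8 mean 157 ± 1.49 FPKM (SD, n = 3 each), which is 1.76-fold higher. On the log2(FPKM + 1) scale, used for every log2 value below, the difference was 0.81 with a standard error (SE) of 0.040, the 23rd highest of the 10597 genes tested. It stayed between 0.72 and 0.83 in the 18 other ways of processing, those that left out M8 replicate 1 or any other library included. In bulk RNA, more transcript per cell and more cells with the transcript cannot be told apart.

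Serpine2, protease nexin 1, which inhibits thrombin and urokinase at the cell surface, was listed at 0 FPKM in all 6 libraries. At these depths 1 read would have given about 0.0188 to 0.0261 FPKM, so the transcript was not detectable and no fold change can be given.

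Serping1, the C1 inhibitor, which blocks the first proteases of complement, was low and lower in M8. The parental libraries held 1.47, 1.79 and 2.31 FPKM and the M8 libraries 1.43, 0.986 and 1.19 FPKM. The groups did not overlap, but the highest M8 library came close to the lowest parental one. The means were 1.86 ± 0.424 FPKM and 1.2 ± 0.223 FPKM (SD, n = 3 each), with a log2 difference of -0.37 (SE 0.13). Behind each value stood only about 30 to 98 reads, estimated from the depth. Over 17 alternatives the log2 difference ran from -0.58 to -0.26.

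Serpinh1, needed for folding procollagen, was among the most abundant serpins. It stood at 323, 325 and 327 FPKM in the parental libraries and at 338, 359 and 366 FPKM in M8. The parental libraries were nearly equal and the M8 libraries more spread, without overlap. The means were 325 ± 2.09 FPKM and 354 ± 14.3 FPKM (SD, n = 3 each), 1.09-fold higher in M8, with a log2 difference of 0.12 (SE 0.041). This small difference kept its direction in all 18 alternatives, from 0.022 to 0.16, but its size depended on the scaling. Under the other scalings it ran from 0.022 after quantile normalization to 0.12, with 0.085 as TPM and 0.061 after upper-quartile scaling.

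The abundant clade B member was Serpinb6a, an inhibitor of trypsin-like proteases and cathepsin G. The parental libraries held 371, 392 and 397 FPKM and the M8 libraries 340, 336 and 337 FPKM. Every M8 library lay below every parental one. The means were 387 ± 13.9 FPKM and 338 ± 2.23 FPKM (SD, n = 3 each), with a log2 difference of -0.19 (SE 0.039). Its close paralogue Serpinb6b, over which Serpinb6a stood 69.3 to 92.3 times within a library, measured 4.67, 4.24 and 4.31 FPKM in the parental libraries and 3.86, 4.84 and 4.82 FPKM in M8. Its groups overlapped, and its log2 difference of 0.022 (SE 0.088) ran from -0.029 to 0.11 over the alternatives, so it had no stable direction.

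Serpinb1a, which inhibits neutrophil elastase, cathepsin G and proteinase 3, was lower in M8. It measured 5.25, 3.85 and 4.45 FPKM in the parental libraries and 2.43, 2.61 and 3.29 FPKM in M8. The groups did not overlap, although the spread within each was wide. The means were 4.52 ± 0.702 FPKM and 2.78 ± 0.450 FPKM (SD, n = 3 each), a ratio of 0.614 and a log2 difference of -0.55 (SE 0.12). It was the lowest ratio among the 8 members with a ratio, and rested on about 87 to 226 reads per library. Without parental replicate 1 the order turned, with a log2 difference of -0.47 for Serping1 against -0.45 for Serpinb1a.

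Serpinb9, the inhibitor of granzyme B, was slightly higher in M8, and its neighbour Serpinb9b was not. Serpinb9 measured 8.56, 8.57 and 8.72 FPKM in the parental libraries and 9.67, 9.66 and 9.88 FPKM in M8. Within each line its libraries differed by little, and all M8 libraries lay above the parental ones. The means were 8.62 ± 0.0865 FPKM and 9.74 ± 0.123 FPKM (SD, n = 3 each), with a log2 difference of 0.16 (SE 0.051). Over 18 alternatives it ran from 0.10 to 0.18. Serpinb9b measured 37.7, 38.7 and 34.1 FPKM in the parental libraries and 36.4, 33.7 and 34.9 FPKM in M8. Its groups overlapped, with a log2 difference of -0.069 (SE 0.056). Within a library, Serpinb9b stood at 4.40, 4.52 and 3.91 times Serpinb9 in the parental libraries and at 3.77, 3.49 and 3.53 times in M8. The ratio of the pair was lower in each M8 library than in each parental one.

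**Figure D2:**
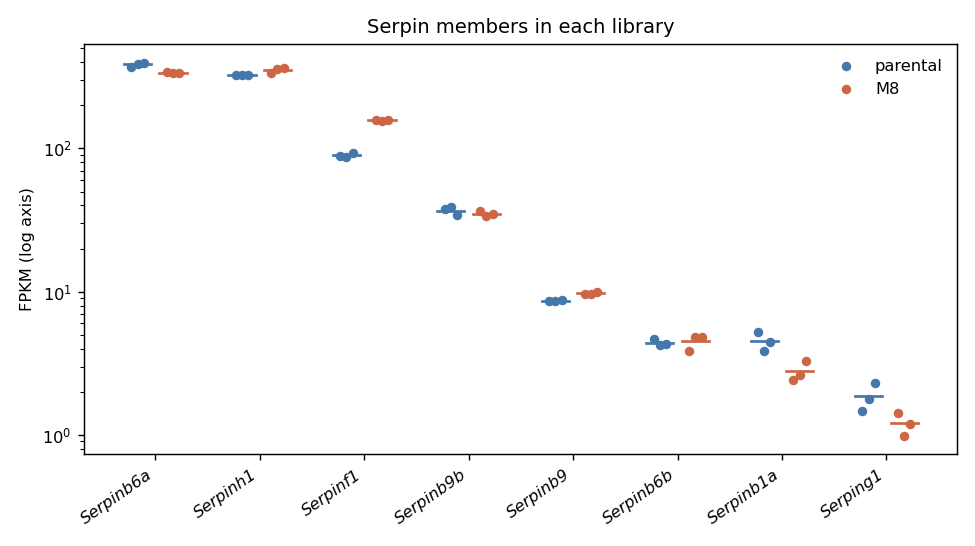
FPKM of the 8 detected serpin members in each library on a log axis, ordered by level, with 1 point per library and a line at the mean of each group of 3. Serpinf1 runs from 86.6 to 92.9 FPKM in parental cells and from 155.9 to 158.8 FPKM in M8, without overlap.

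Of the 9 members, 8 passed the filter of a mean of at least 1 FPKM, and Serpine2 did not. The threshold for all genes was an adjusted p below 0.1 by limma. As a description and not a test of the members, which were chosen with this comparison known, 3 of the 8 lay past it as higher in M8 (Serpinf1, Serpinh1 and Serpinb9) and 3 as lower (Serping1, Serpinb1a and Serpinb6a). The same 3 and 3 had groups that did not overlap. Over all genes tested, 37.7% were past the threshold, 21.2% as higher and 16.5% as lower, and 45.2% had groups that did not overlap, 24.8% with M8 above and 20.4% with M8 below. Nothing is read from the members' counts. Of the 6 members, 3 remained past the threshold without parental replicate 2 or M8 replicate 3, 4 without M8 replicate 2, 5 without parental replicate 3 or M8 replicate 1, and 6 without parental replicate 1. Serpinf1, Serpinb1a and Serpinb6a lay past it in all 6 of these fits, Serpinh1 and Serpinb9 in 3 each and Serping1 in 2. Over all genes, these fits had 1591 to 2100 higher and 1142 to 1681 lower, fewest without M8 replicate 1, beside 2250 and 1745 with all libraries. Only Serpinf1 combined the threshold with a difference of at least 1.5-fold on the log2 scale, as 0.396% of all genes did in that direction, and no member did so as lower, beside 0.698% of all genes. For Serpinb1a this turned on the processing, since it was past 1.5-fold lower with a pseudocount of 0.1 or 0.5, as TPM, after upper-quartile scaling and without parental replicate 2 or M8 replicate 3, at most by -0.68 on the log2 scale. Scaling by the upper quartile of each library changed the split over all genes from 2250 higher and 1745 lower to 1470 higher and 2769 lower, and left Serpinf1 as the 1 member counted as higher. The median log2 difference of the 8 members was -0.024, beside 0.0069 over all genes. Without M8 replicate 1, the library with the liver transcripts, the log2 differences were 0.80 for Serpinf1, -0.44 for Serping1, 0.16 for Serpinh1, -0.48 for Serpinb1a, -0.20 for Serpinb6a, 0.11 for Serpinb6b, 0.16 for Serpinb9 and -0.098 for Serpinb9b, each in the direction of the fit to all 6 libraries.

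**Figure D3:**
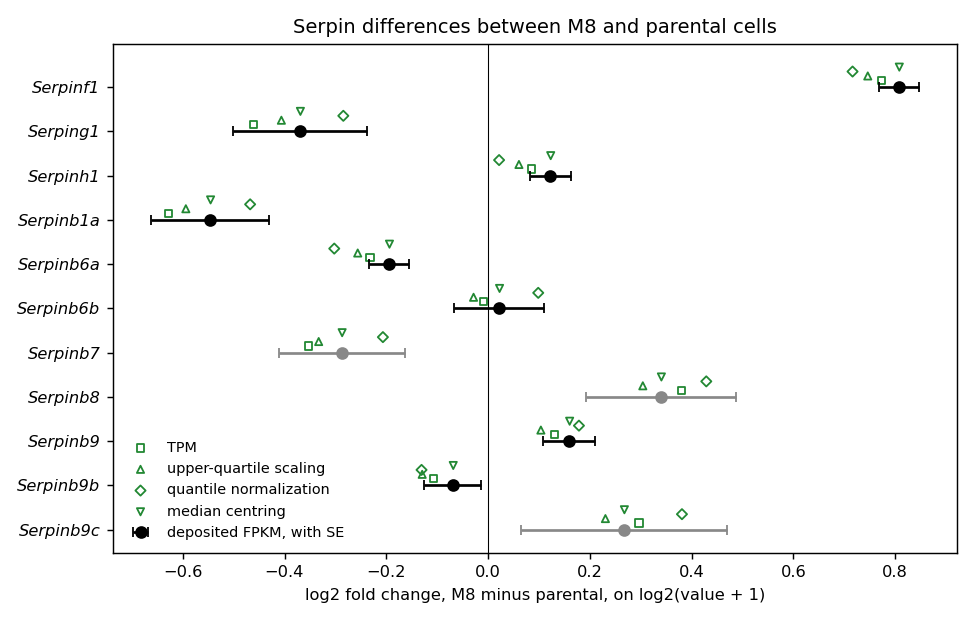
Log2 difference between M8 and parental cells, on log2(value + 1), for the 8 members (black) and 3 other serpins (grey), with bars for the SE and green symbols for 4 other scalings. Serpinf1 stands at 0.81 and between 0.72 and 0.81 under the scalings, while Serpinb6b changes sign among them.

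As sums, the secreted and the intracellular members differed in opposite directions. Serpinf1, Serpine2 and Serping1 together measured 90.3, 88.4 and 95.2 FPKM in the parental libraries and 160.2, 156.8 and 158.1 FPKM in M8. The 5 clade B members together measured 427, 447 and 449 FPKM in the parental libraries and 392, 386 and 390 FPKM in M8. Both sums separated the lines without overlap, the secreted one upward and the intracellular one downward in M8. The secreted sum divided by the intracellular sum was 0.211, 0.198 and 0.212 in parental cells and 0.408, 0.406 and 0.406 in M8. Its mean was 0.207 ± 0.00807 against 0.407 ± 0.00152 (SD, n = 3 each), 1.96-fold higher in M8.

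Each of these sums was carried by a single gene. Serpinf1 made up 97.6% to 99.4% of the secreted sum and Serpinb6a 86.4% to 88.5% of the intracellular one. Without Serpinf1, the secreted sum was Serping1 alone, and the ratio of the sums was 0.00345, 0.00399 and 0.00515 in the parental libraries and 0.00365, 0.00255 and 0.00305 in M8. These groups overlapped, with an M8 mean of 0.735 times the parental one, on the 30 to 98 reads of Serping1. The comparison of compartments is therefore a comparison of Serpinf1 with Serpinb6a, whose ratio was 0.232 ± 0.00935 in parental cells and 0.466 ± 0.00137 in M8 (SD, n = 3 each). Adding Serpinh1 to the secreted members brought the difference to 1.39-fold.

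All serpin symbols together differed far less than this ratio. The family summed to 867, 894 and 905 FPKM in the parental libraries and to 919, 928 and 942 FPKM in M8, a ratio of 1.05. In parental cells, Serpinb6a held 43.5%, Serpinh1 36.6% and Serpinf1 10.1% of this sum. In M8 the shares were 36.3%, 38.1% and 16.9%. These 3 genes held 90.1% of serpin FPKM in parental cells and 91.3% in M8. Serpinb6a ranked above Serpinh1 in the 3 parental libraries. In M8 replicate 1 they were close, with 340 against 338 FPKM, and Serpinh1 ranked first in replicates 2 and 3. Serpinf1 came next, followed among the members by Serpinb9b and then Serpinb9 in every library. At the low end, Serpinb6b and Serpinb1a overlapped in the parental libraries but not in M8, and Serping1 was the lowest detected member throughout.

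**Figure D4:**
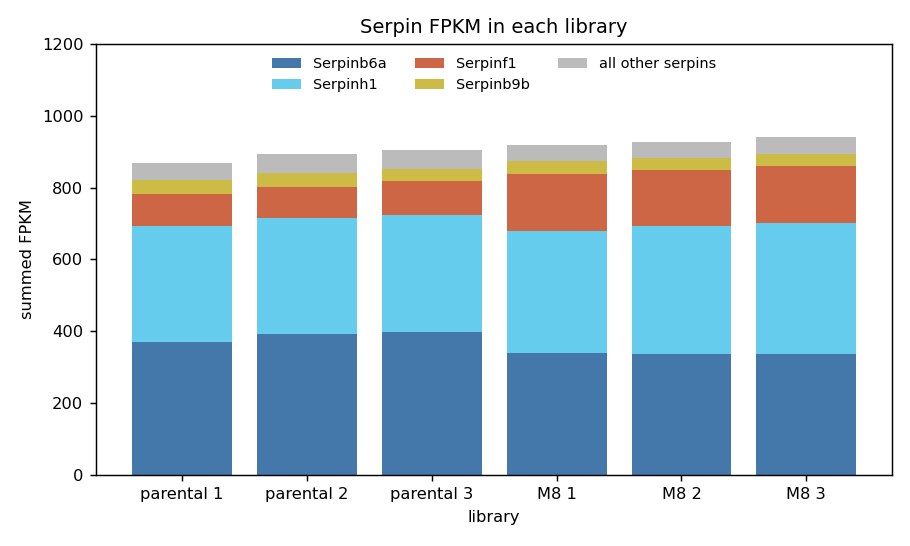
Summed FPKM of all serpins in each library, stacked by gene, with Serpinb6a, Serpinh1, Serpinf1 and Serpinb9b in color and all others in grey. The total runs from 867 to 942 FPKM, and the Serpinf1 segment grows from 10.1% to 16.9% of it between parental cells and M8.

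Of the other 53 serpin symbols, 26 were at 0 in all 6 libraries and 4 had a mean of at least 1 FPKM. None of these 4 passed the threshold by limma, and 2 of them, Serpinb7 and Serpinb8, had an unadjusted p below 0.05. Serpinb7, Serpinb8 and Serpinb9c lay between 0.704 and 3.30 FPKM, with adjusted p of 0.111, 0.114 and 0.351 by limma. Each of the 3 passed when a certain library was left out: Serpinb7 without M8 replicate 1 (adjusted p = 0.0237), Serpinb8 without parental replicate 2 or M8 replicate 2 (0.0678 and 0.0780), and Serpinb9c without parental replicate 2 (0.0804).

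The proteases and receptors that secreted serpins meet were compared by the same limma fit. Of 34 such genes in the files, 13 were tested, 3 rose and 2 fell in M8, so that 38.5% passed, beside 37.7% of all genes, with a median log2 difference of 0.027. Masp1, a lectin pathway protease that Serping1 blocks, measured 9.70, 11.2 and 13.4 FPKM in the parental libraries and 18.4, 17.2 and 21.2 FPKM in M8. It rose by 0.69 (SE 0.11, adjusted p = 0.00226). C1ra, a classical pathway target of Serping1, rose by 0.33 (SE 0.048, adjusted p = 0.00174), whereas the other such target, C1s1, differed by 0.027 (SE 0.074, adjusted p = 0.814). Masp2, the other lectin pathway protease that Serping1 blocks, missed the filter with a mean of 0.998 FPKM and was not tested. It is named after its values were seen, with 1.83, 1.27 and 1.37 FPKM in the parental libraries and 0.753, 0.670 and 0.0987 FPKM in M8, so that its groups did not overlap and M8 was lower. C4b, a complement component cleaved in both pathways, fell by 0.51 on the log2 scale, from a mean of 2.45 ± 0.188 FPKM to 1.42 ± 0.0799 FPKM (SD, n = 3 each, adjusted p = 0.00388). The endocytic receptor Lrp1, which clears serpin and protease complexes, rose from 66.4 ± 7.13 to 81.7 ± 1.46 FPKM (adjusted p = 0.0104). Of the genes tied to Serpine2, the urokinase gene Plau was at most 0.0196 FPKM, the tissue plasminogen activator gene Plat differed by -0.023 (adjusted p = 0.840) and the thrombin receptor gene F2r by 0.063 (adjusted p = 0.395).

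A list of 26 genes held proteases that clade B serpins meet inside the cell and the perforin gene Prf1, which encodes no protease. Of these, 9 were at 0 in all libraries, among them Prf1, Gzmb, the granzyme that Serpinb9 inhibits, and Ctsg, a target of Serpinb6a and Serpinb1a. Elane and Prtn3, the other targets of Serpinb1a, were at most 0.0553 and 0.207 FPKM. Of the 10 tested, 2 rose and 2 fell (40.0%, beside 37.7% of all genes, median -0.025). Casp4, which senses cytosolic lipopolysaccharide, fell from 15.9 ± 2.81 to 11.2 ± 0.949 FPKM (SD, n = 3 each), with a log2 difference of -0.46 (adjusted p = 0.0150). Casp1, the inflammasome caspase, rose from 16.3 ± 2.19 to 19.7 ± 0.886 FPKM (log2 0.27, adjusted p = 0.0384). The lysosomal proteases Ctsl and Ctsd differed by 0.12 (adjusted p = 0.0892) and -0.13 (adjusted p = 0.040). Without M8 replicate 1 a single gene of this list passed, Casp4, and the adjusted p was 0.137 for Casp1, 0.138 for Ctsd and 0.15 for Ctsl. Ctsd also did not pass without parental replicate 2 (adjusted p = 0.119), and Ctsl without parental replicate 1, M8 replicate 2 or M8 replicate 3 (0.154, 0.269 and 0.192). Over all genes, the fit without M8 replicate 1 had 1591 higher and 1142 lower, beside 2250 and 1745 with all libraries.

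Of 33 genes for collagens, the clients of Serpinh1, and for their folding and modification, 26 were tested, 3 rose and 6 fell (34.6%, beside 37.7% of all genes, median -0.065). Col1a1 measured 87.5, 89.3 and 88.0 FPKM in the parental libraries and 91.5, 97.6 and 90.7 FPKM in M8, without passing (adjusted p = 0.189). Col1a2 at 487 and 467 FPKM (adjusted p = 0.271) and Col4a1 at 73.9 and 71.2 FPKM (adjusted p = 0.472) did not pass either. The scaling mattered here, since Col1a2 passed as lower as TPM, after upper-quartile scaling and after quantile normalization, at most by -0.17 on the log2 scale. Col4a1 passed as lower after quantile normalization alone (log2 -0.14). The genes that rose were Pcolce, an enhancer of procollagen processing (log2 0.24, adjusted p = 0.00641), and the procollagen folding factors Ppib (log2 0.14, adjusted p = 0.0565) and Fkbp10 (log2 0.14, adjusted p = 0.0425). The largest falls that passed were those of Plod2, a lysyl hydroxylase (log2 -0.37, adjusted p = 0.0397), Col6a3 (log2 -0.30, adjusted p = 0.0764) and Col18a1, the source of endostatin (log2 -0.29, adjusted p = 0.00664). Col18a1 passed with each library left out, whereas Plod2 did not pass without parental replicate 2 or M8 replicate 1 (adjusted p of 0.112 and 0.146), with parental replicate 1 at 20.8 FPKM, close to the M8 libraries, and Col6a3 did not pass without parental replicate 1 or 2 or M8 replicate 1 or 2 (0.122 to 0.229). The count of 9 fell to 5 without M8 replicate 1 and without M8 replicate 2.

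Of 13 genes for receptors of PEDF and its partners in vessel growth, 8 were tested, 5 rose and 2 fell (87.5%, beside 37.7% of all genes, median 0.16). Without M8 replicate 1, 5 of the 8 passed, while over all genes 1591 were higher and 1142 lower, beside 2250 and 1745 with all libraries. The list is short and was chosen with earlier results known. Pnpla2, a lipase that also binds PEDF, fell from 20.5 ± 1.19 to 17.6 ± 0.579 FPKM (SD, n = 3 each), with a log2 difference of -0.21 (adjusted p = 0.0192). Rpsa, the laminin receptor that binds PEDF, stood at 1656 and 1776 FPKM, a log2 difference of 0.10 (adjusted p = 0.0951) that did not pass without parental replicate 1 or 2 or without any 1 of the M8 libraries (adjusted p of 0.125 to 0.317). Atp5b, the ATP synthase subunit named as a PEDF receptor, rose by 0.22 (adjusted p = 0.00309), and Lrp6 did not pass (-0.021, adjusted p = 0.850). The anti-angiogenic thrombospondins Thbs1 and Thbs2 rose by 0.39 and 0.25 (adjusted p = 0.00620 and 0.00558). The vessel growth factor Vegfa fell by 0.18 (adjusted p = 0.0184), while Vegfb rose by 0.23 (adjusted p = 0.0245), with an adjusted p of 0.101 without M8 replicate 1. None of the 8 reached a 1.5-fold difference.

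Of 37 genes for protease inhibitors of other families, 12 were tested, 2 rose and 5 fell (58.3%, beside 37.7% of all genes, 21.2% as higher and 16.5% as lower, median -0.089). Birc5, or survivin, of the inhibitor of apoptosis family, rose by 0.39 (adjusted p = 0.000261), and the cystatin Cstb rose from 274 ± 17.1 to 348 ± 18.2 FPKM (SD, n = 3 each, adjusted p = 0.00248). The matrix metalloproteinase inhibitors Reck, Timp1 and Timp2 fell by 0.38, 0.31 and 0.27 (adjusted p = 0.0150, 0.0190 and 0.00288). By limma, Serpinf1 had a larger log2 difference than each of these inhibitors, given as a description.

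**Figure D5:**
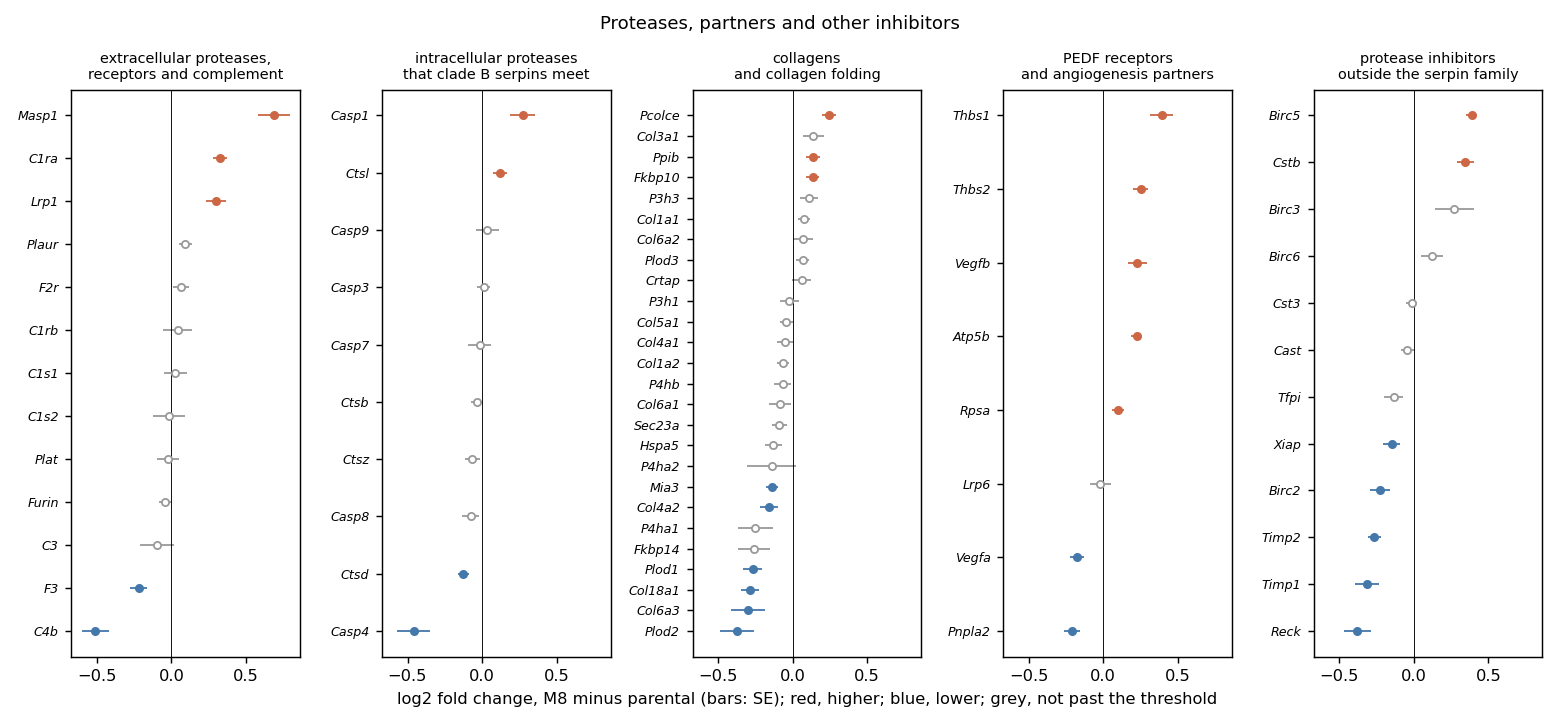
Log2 difference between M8 and parental cells, with SE bars, for the tested genes of 5 lists of proteases, partners and other inhibitors, 1 panel per list. Red and blue mark genes past the threshold as higher or lower, from Masp1 at 0.69 to C4b at -0.51, and grey those that did not pass.

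The genes whose pattern over the 6 libraries was most like that of Serpinf1 were ranked by Pearson's r on log2(FPKM + 1), among 8542 genes with a mean of at least 5 FPKM. The 5 highest were Slc3a2, an amino acid transporter subunit (r = 0.9993), Cdk1, the mitotic kinase (0.9990), Nars, an asparaginyl-tRNA synthetase (0.9978), Nop56, a ribosome assembly factor (0.9976), and Ifi35, an interferon-induced gene (0.9976). Slc3a2 measured 163, 161 and 168 FPKM in the parental libraries and 219, 217 and 215 FPKM in M8. All 5 had every M8 library above every parental one, and the points of each correlation share the same 6 libraries in 2 groups, so the values describe the likeness and carry no test.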

How the data were processed

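RNA of 3 parental and 3 M8 samples was sequenced as stranded mRNA libraries with single reads. Reads were aligned to mm10 by TopHat in the study's methods, and the authors used Cufflinks 2.2.1 to make the deposited FPKM values. The submitters' processing notes name TopHat2 2.1.1, Bowtie2 2.2.8, SAMtools 0.1.18 and Cuffdiff 2.2.1. The gene annotation is not given in the sources used here. FPKM values are not counts, so the authors' test on read counts was not repeated. They give no counting error of their own, and depth was estimated from the steps between low values, in 264 of 458 genes looked at.

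Differences were fitted with limma 3.58.1 in R 4.3.3 on log2(FPKM + 1), with eBayes and a mean-variance trend, for the 10597 genes with a mean of at least 1 FPKM. P-values were adjusted over these by Benjamini-Hochberg, and genes with an adjusted p below 0.1 at any fold were past the threshold. The fit was tested on simulated data. The members, the lists and the tests were chosen with earlier results of these data known. Genes named are the members, other serpins with a mean of at least 1 FPKM (1 is not reported here), direct targets, in each list the 3 past the threshold with the largest log2 difference, and the 5 genes most like Serpinf1. A few more list genes, the clade A serpins and the liver genes were named after their values had been seen. Alternatives were other pseudocounts (0.1 and 0.5), filters, scalings, thresholds, a replicate block and each library left out. Figures were drawn with matplotlib 3.10.9 in Python 3.11.15.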

Additional observations from a re-analysis of the deposited data

How the results depend on the processing

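Among the 43 genes recomputed under 17 or 18 alternatives, no called direction reversed. Without a filter on low values, 5 collagen genes (9 in the reported fit), 8 extracellular genes (5) and 1 other serpin (0) passed. Among the members, Serping1 did not pass in that fit. With a mean of at least 5 FPKM, 1 member was lower, since Serping1 and Serpinb1a fall below that mean. As TPM or after upper-quartile scaling, 1 member was higher and 2 other serpins passed, and upper-quartile scaling gave 1470 genes higher and 2769 lower. After quantile normalization 1 other serpin passed, while the members Serping1 and Serpinh1 did not. With at least 1.5-fold, 42 genes were higher and 74 lower, 1 member (higher) and 0 lower, 1 extracellular gene, and 0 in the PEDF, collagen, intracellular and other inhibitor lists. The secreted over intracellular ratio of 1.96 became 1.39 with Serpinh1 added and 0.735 without Serpinf1. With each library left out, 3 to 6 members passed, 1 to 3 of them higher, 1142 to 1681 genes were lower, and 5 to 12 collagen, 1 to 4 intracellular and 0 to 2 other serpin genes passed. Samples with the same replicate number deviated together with correlations of 0.10, -0.106 and -0.0326, beside -0.128 to 0.181 for the other pairs. No pairing by number was seen, but 3 libraries per line cannot exclude it. With the replicate number as a block, 2 other serpins passed. Unless stated, the cause was not tested. With 3 against 3 samples an exact permutation test cannot go below p = 0.1, and under about 100 reads, as for Serping1, counting error adds to the spread.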
